A study of Homo sapiens with 36 samples.

Results

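IQGAP1, AMOT, CTNNB1, SPTAN1 and SPTBN1 encode proteins of cell adhesion and the membrane skeleton, and their mRNAs carried many of the windows that were enriched with the lectin LGALS3 in HEK293T cells. The genes were selected on their number of LGALS3 windows, so that number describes the choice and no test was made on it. They are 5 of 369 genes in the LGALS3 list and of 11298 genes listed for any of 9 proteins, and they held 165 of the 1002 LGALS3 windows (16.5%). Over all 9 lists they had 1286 entries of 788098, at 734 distinct windows.

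Binding was mapped by eCLIP, in which proteins are crosslinked to RNA in living cells, the RNA is trimmed, 1 protein is immunoprecipitated (IP), and the recovered RNA is sequenced beside an input library made without the pulldown. HEK293T is a human embryonic kidney cell line, and the cells of every group were untreated. The labels give 2 IP and 2 input libraries for each of LGALS3, RNPS1, CPSF5, CPSF6, EIF4B, MBNL2, GRB2, RBM10 and RBM22, 36 libraries in all. They name an antibody against the protein or against a V5 tag without saying which served which protein, so a tagged, overexpressed form cannot be told apart from the native one.

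LGALS3 (galectin-3) is a lectin that binds galactosides on glycoproteins at the cell surface and is also found in the cytosol and nucleus. IQGAP1 is a scaffold that links the small GTPases CDC42 and RAC1 and calmodulin to actin. AMOT (angiomotin) is a junctional scaffold that binds actin and the Hippo pathway effector YAP. CTNNB1 (beta-catenin) ties cadherins to the actin skeleton through alpha-catenin and acts as a transcriptional coactivator in Wnt signalling. SPTAN1 and SPTBN1 are the alpha and beta subunits of the nonerythroid spectrin that lines the plasma membrane, and ankyrins and actin bind to it.

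A window is a stretch of at most 100 nt that the authors called enriched over input in both replicates, at a q-value below 0.2. The tables give the read counts of a window summed over the replicates, and a log2 enrichment, the authors' own value, as the lower and the higher of the 2 replicates. Which replicate was the lower is not stated. The LGALS3 list was the shortest of the 9, with 187076 IP reads and 65036 input reads in its windows. The genes of other assayed proteins stood high in it. MBNL2 had 17 LGALS3 windows with a median lower-replicate log2 enrichment of 6.52 and RNPS1 13 with 4.45, above the 1.96 of LGALS3 itself with 11. The genes of the other 6 assayed proteins had 0. Their bearing on the LGALS3 windows of the 5 genes was not tested.

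**Figure D1:**
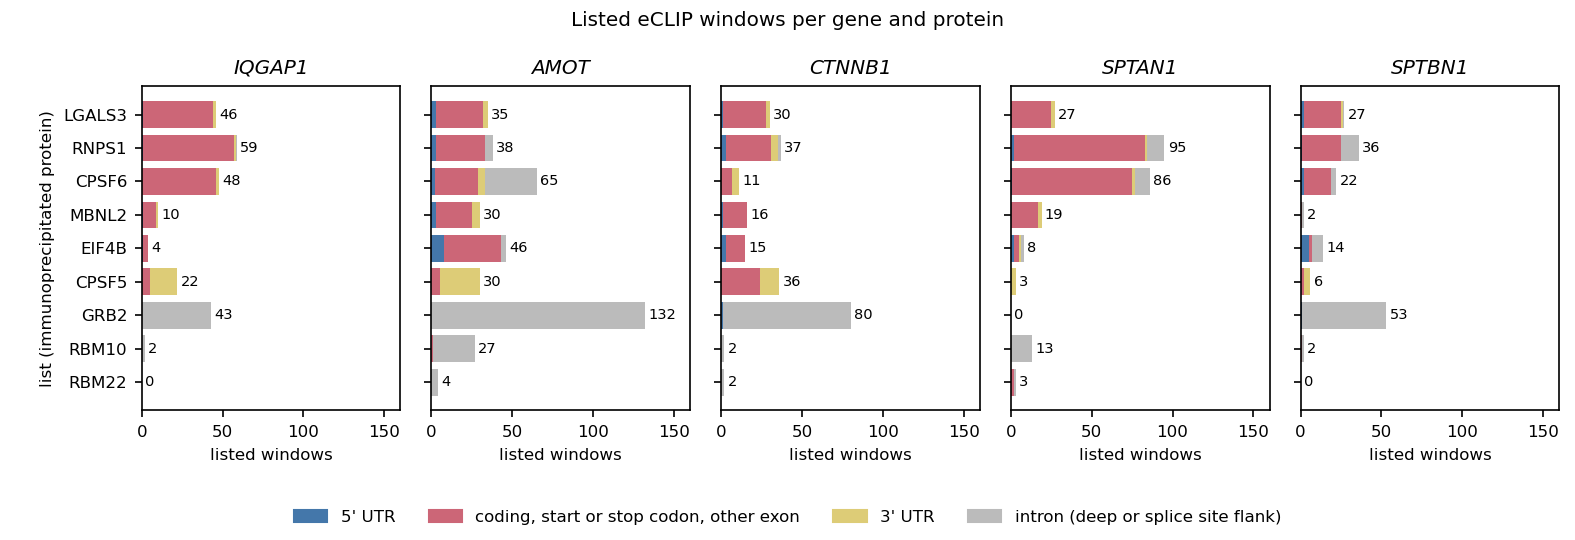
Number of listed windows (horizontal axes) of each gene in each of the 9 lists (vertical axis), coloured by the annotated feature. LGALS3 windows were nearly all exonic in every gene, whereas the GRB2 windows, up to 132 in AMOT, were all intronic but 2.

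The 5 genes lie on 5 chromosomes of hg38. IQGAP1 (ENSG00000140575) spans chromosome 15, 90388242 to 90502239, on the plus strand, and AMOT (ENSG00000126016) spans chromosome X, 112774877 to 112840831, on the minus strand. CTNNB1 (ENSG00000168036) spans chromosome 3, 41199505 to 41240443, SPTAN1 (ENSG00000197694) chromosome 9, 128552587 to 128633662, and SPTBN1 (ENSG00000115306) chromosome 2, 54456327 to 54671446, all on the plus strand. These spans are those of the RefSeq gene table for GRCh38.p14.

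LGALS3 windows reached the first transcribed base of 3 of the 5 mRNAs, which is where sequence could be read from the RefSeq promoter table (GRCh38.p14). The 3 short stretches show those starts, with the bases inside the LGALS3 window in capitals and the 10 bases before them in lower case. The longer one is the whole window at a second RefSeq start of SPTBN1, with the bases from that start onward in capitals. The GC content of that whole window, 59.0%, equalled the deposited value.
IQGAP1, chr15:90388232-90388261, plus strand: gggcctcgggGACCCCGGCAAGCCCGCGCA
AMOT, chrX:112840812-112840841, minus strand: cccctcccctACCTCCCATCCTTTGCCCAG
SPTBN1, chr2:54456317-54456346, plus strand: ggattcctccAGTCCCTCCCTCGGCCGCCT
SPTBN1 second start, chr2:54558294-54558393, plus strand: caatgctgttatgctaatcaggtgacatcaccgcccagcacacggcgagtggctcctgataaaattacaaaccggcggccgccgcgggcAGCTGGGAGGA

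IQGAP1 had the most LGALS3 windows of any gene, 46. AMOT had 35, CTNNB1 30, and SPTAN1 and SPTBN1 27 each. Just below the lowest of the 5 were the actin-binding protein genes DBN1 (drebrin) and ACTN4 (alpha-actinin-4) with 25 windows each, MACF1, a spectraplakin gene, with 24, HUWE1 with 21 and PRPF8 with 19. The median over the genes of the LGALS3 list was 1 window, and 227 of the 369 had 1. Of all genes listed for any protein, 3.27% had an LGALS3 window.

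Long mRNAs offer more places for a window, but mRNA length was not used. The counts were set against the exonic windows that any of the 9 lists held in the gene. That number depends on the calls for the other proteins and is not a correction for length. By that measure LGALS3 held 66.7% of the exonic windows of CTNNB1 (30 of 45) and of SPTBN1 (26 of 39). It held 56.8% in IQGAP1 (46 of 81), 46.7% in AMOT (35 of 75) and 29.3% in SPTAN1 (27 of 92). The order thus differed from that of the counts: IQGAP1, first by count, fell behind CTNNB1 and SPTBN1, and SPTAN1 was last. Among the 160 LGALS3 genes with at least 30 exonic windows in any list, the median was 2.86%. The choice of genes by their LGALS3 windows raises their shares, and the same windows count in the denominator. Nothing is therefore read from the distance of the chosen genes to that median. MACF1, with 24 LGALS3 windows, reached 10.2%, HUWE1 12.6% and PRPF8 19.6%. Other genes had shares within the range of the chosen genes. DBN1 reached 65.8% (25 of 38) and ACTN4 54.3% (25 of 46), both above AMOT. EEF1A1 reached 43.3% and RNPS1 30.2%, both above SPTAN1. A high share was thus not particular to the chosen genes.

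**Figure D2:**
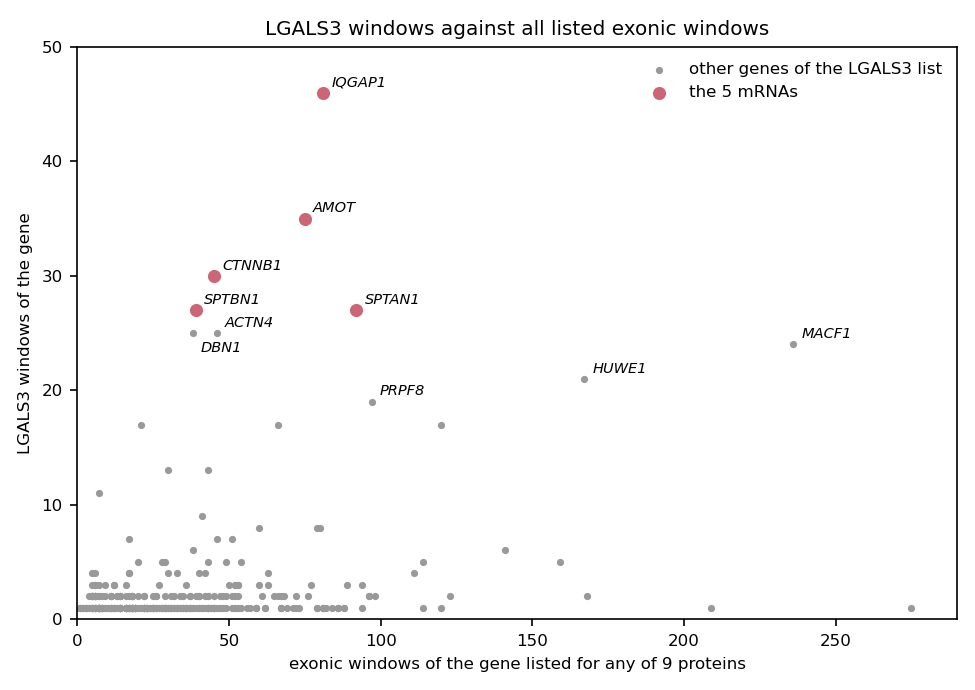
Number of LGALS3 windows of a gene (vertical axis) against the number of its exonic windows listed for any of the 9 proteins (horizontal axis), 1 point per gene of the LGALS3 list. Genes without an exonic window in any list are not drawn, and 1 further gene is left out. The 5 genes, chosen by their LGALS3 count, lie above the many genes with 1 or a few LGALS3 windows. MACF1 has 24 of 236 exonic windows, SPTAN1 27 of 92 and DBN1 25 of 38.

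Most LGALS3 windows of the 5 mRNAs were in coding sequence, 141 of 165 or 85.5% (95% exact binomial interval 79.1 to 90.5, counting error only). A further 4 covered a stop codon, 2 a start codon, 7 were in 5' UTRs, 10 in 3' UTRs and 1 in an intron. The coding count was 42 of 46 in IQGAP1, 24 of 27 in SPTAN1, 26 of 30 in CTNNB1, 23 of 27 in SPTBN1 and 26 of 35 in AMOT. AMOT had the lowest coding share, 74.3%, and 3 windows in each of its UTRs. No LGALS3 window of the 5 genes was of the splice site flank class, which holds intronic windows only. Coding windows can still adjoin a splice site. In IQGAP1 the LGALS3 coding window from 90452775 directly followed a flank window that ended at 90452774. Over the whole LGALS3 list 627 of 1002 windows were coding (62.6%), 115 were in 3' UTRs and 24 in splice site flanks. A high coding share was not particular to the 5 genes. Of the genes just below them by count, it was 100% in HUWE1 and PRPF8, 95.8% in MACF1, 80.0% in ACTN4 and 76.0% in DBN1.

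The windows of IQGAP1 were the most enriched of the 5. The lower-replicate log2 enrichment of its 46 windows ran from 2.15 to 5.25 with a median of 3.47, and the median of the higher replicate was 4.49. CTNNB1 had medians of 3.17 and 4.29, with lower values from 2.36 to 4.93. SPTBN1 had medians of 2.89 and 4.30, and SPTAN1 2.74 and 3.67. AMOT was lowest, with medians of 2.43 and 3.44 and no lower value above 3.53. The ranges of all 5 genes overlapped, and neighbours in this order differed by less than the gap between replicates, whose median was 0.81 in IQGAP1, 0.85 in CTNNB1, 0.93 in SPTAN1, 1.01 in AMOT and 1.32 in SPTBN1. The distance between IQGAP1 and AMOT exceeded 1 log2 unit in both the lower and the higher medians. Over the whole list the medians were 2.39 and 3.24. AMOT windows also had more input reads, with a median of 7 against 2 in IQGAP1, 3 in SPTAN1 and SPTBN1 and 4 in CTNNB1, and whether RNA level had a part in the lower ratio was not tested.

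**Figure D3:**
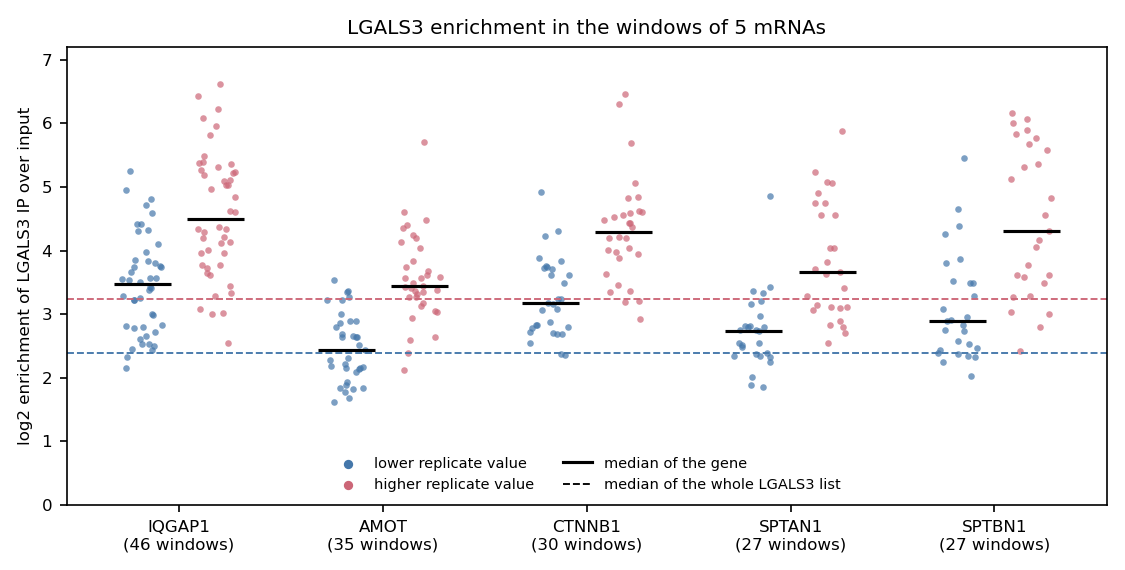
Log2 enrichment of LGALS3 IP over input (vertical axis) in each window of the 5 genes, with the lower (blue) and higher (red) replicate value, gene medians as black bars and medians of the whole list as dashed lines. The IQGAP1 medians, 3.47 and 4.49, are the highest, and the lower-replicate median of AMOT, 2.43, lies on that of the whole list, 2.39.

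Read counts behind single windows were small. The 165 windows held 15 to 153 IP reads with a median of 39, and 0 to 20 input reads with a median of 3, and 5 of them had no input read. The whole list had medians of 35 and 5. Both replicates had q-values no higher than 0.05 in 28 of 46 windows in IQGAP1, 23 of 30 in CTNNB1, 13 of 35 in AMOT, 12 of 27 in SPTBN1 and 6 of 27 in SPTAN1. The SPTAN1 count therefore rests mostly on windows between 0.05 and 0.2. Together the 5 genes had 82 such windows, 49.7% of theirs, against 27.5% over the whole list.

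In IQGAP1 the strongest window was coding, on chromosome 15, 90484286 to 90484352, with 62 IP reads, 2 input reads and log2 enrichments of 5.25 and 5.27. A coding window at 90483438 to 90483515 had 34 IP reads and no input read, at 4.96 and 5.39, and one at 90491333 to 90491403 had 23 and none, at 4.82 and 4.84. The replicates of these 3 windows differed by less than 0.5. Most reads, 72, were in the coding window at 90477067 to 90477148, where the replicate values were 4.10 and 6.62.

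In AMOT the strongest window was coding, on chromosome X, 112790592 to 112790686, with 54 IP reads, 4 input reads and enrichments of 3.53 and 4.48. It was listed for 6 further proteins, more than any other LGALS3 window of the 5 genes. The windows at 112780886 to 112780962 and 112782601 to 112782662 reached 3.36 and 3.34 in the lower replicate. The 153 IP reads at 112779583 to 112779680, with 20 input reads, were the most in any window of the 5 genes, but the lower enrichment there was only 1.78.

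The strongest CTNNB1 window was coding, on chromosome 3, 41227208 to 41227279, with 53 IP reads, 1 input read and enrichments of 4.93 and 6.47. The window over the stop codon, 41239243 to 41239342, had 65 and 1 and reached 4.31 and 6.31. The coding window at 41233613 to 41233697 had 116 IP reads, the most in this gene, with 8 input reads and close replicate values of 4.23 and 4.43.

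The 2 spectrin mRNAs had few input reads in their strongest windows. In SPTBN1 a coding window on chromosome 2, 54655070 to 54655138, had 29 IP reads, no input read and enrichments of 5.45 and 5.77, the highest lower value of the 5 genes and 25th in the whole list. The coding windows at 54644499 to 54644586 and 54644323 to 54644410 followed, at 4.65 and 4.39 in the lower replicate. In SPTAN1 a coding window on chromosome 9, 128625769 to 128625838, had 31 IP reads, no input read and values of 4.86 and 5.23. The next SPTAN1 windows, at 128609122 to 128609202 and 128582479 to 128582556, were well below it at 3.43 and 3.36.

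Along the mRNA, exonic windows were placed in transcript order among all exonic windows that any list held in that gene. Windows in no list have no place in this order, so consecutive places can skip parts of the mRNA. In SPTBN1 a stretch of 16 consecutive places, 11 to 26 of 39, was listed for LGALS3. CTNNB1 had a stretch of 15 (places 19 to 33 of 45, up to the stop codon), AMOT of 11 and IQGAP1 of 10. SPTAN1 had no stretch longer than 3. Its first 24 exonic windows had no LGALS3 call although RNPS1 was listed in 23 of them, and the first LGALS3 window was at place 25 of 92. The longest gaps in AMOT (20 windows) and IQGAP1 (14 windows) were near the 3' end, where RNPS1 was listed in 0 as well. That of SPTBN1 was at places 2 to 6, with RNPS1 listed in 2 of these 5 windows.

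When each mRNA was cut into 3 parts with equal numbers of listed exonic windows, LGALS3 held 74.1%, 66.7% and 29.6% of them in IQGAP1 from 5' to 3'. In AMOT it held 15 of 25, 19 of 25 and 1 of 25. The shares were 73.3%, 93.3% and 33.3% in CTNNB1, and 53.8%, 100% (13 of 13) and 46.2% in SPTBN1. SPTAN1 ran the other way at its 5' end, with 13.3%, 35.5% and 38.7%. Most of the 3' UTR windows of CPSF5, a polyadenylation factor subunit, lay in the last part of the mRNAs and count in the denominator there.

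**Figure D4:**
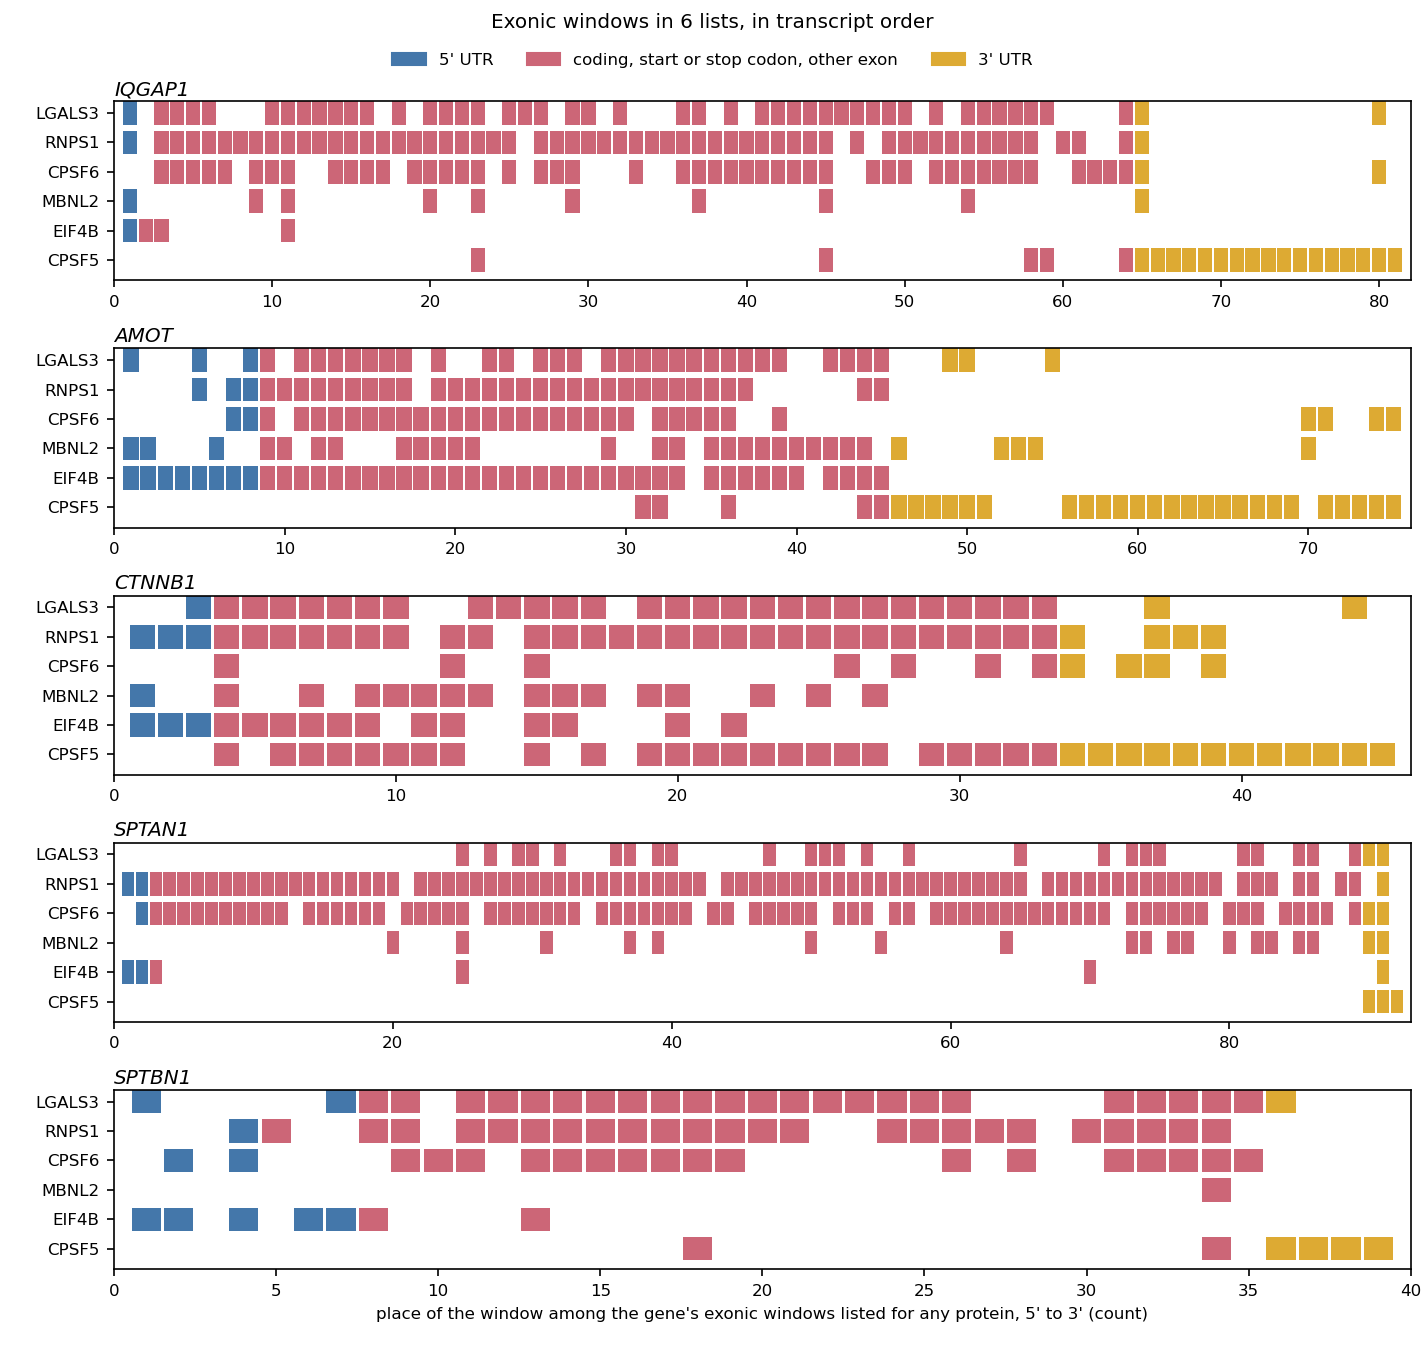
Exonic windows of the 5 genes in 6 lists, each box a listed window, drawn by its place (horizontal axis, count from the 5' end) among the exonic windows listed for any of the 9 proteins. Windows in no list are not drawn, so the axis is not mRNA length. LGALS3 boxes fill most of the listed coding places of CTNNB1 and of SPTBN1 and start at place 25 of 92 in SPTAN1. They are few in the 3' UTR of AMOT, where CPSF5 had 25 windows.

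The 2 spectrin mRNAs, whose products form 1 complex, had nearly equal numbers of coding LGALS3 windows, 23 in SPTBN1 and 24 in SPTAN1. They differed in the number of coding windows that any list held, 25 and 85. LGALS3 thus held 92.0% of the listed coding windows of SPTBN1 and 28.2% of those of SPTAN1. SPTAN1 was the richer in coding windows for RNPS1 (79 against 21) and CPSF6 (72 against 16), which count in the denominator. Coding segments were counted only where some list held a coding window. Of these, SPTBN1 had an LGALS3 window in 13 of 14 and SPTAN1 in 22 of 51. LGALS3 windows lay in 29 of 34 such segments of IQGAP1, 11 of 11 of AMOT and 13 of 13 of CTNNB1. An unlisted SPTAN1 window is not shown to be unbound. No library value was available to test the difference in share.

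Nearly all LGALS3 windows of the 5 mRNAs were also listed for another protein. This held for 159 of 165, or 96.4% (95% exact binomial interval 92.3 to 98.7), against 777 of 837 windows (92.8%) in the other genes of the LGALS3 list. RNPS1, a splicing factor that joins the exon junction complex, held 143 of them (86.7%), CPSF6 107 (64.8%), EIF4B and MBNL2 52 each (31.5%), and CPSF5 43 (26.1%). RBM22 held 2, RBM10 1 and GRB2 0. Among coding windows alone the RNPS1 share was 91.5% in the 5 genes and 89.7% in the other genes, and the CPSF6 share 68.1% and 70.4%. The MBNL2 share was 31.9% against 57.2% and the EIF4B share 28.4% against 47.9%. The lists share no libraries, but abundant RNA is detected more readily in all of them, and RNA level was not measured here.

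Read from the other side, 136 of the 229 coding windows that any other list held in the 5 genes were LGALS3 windows too, and over all genes the share was 0.495%. Over windows of every feature type the share for all genes was 0.156%. The choice of genes by their LGALS3 windows sets this difference, and nothing is read from it. Of the 209 RNPS1 coding windows in the 5 genes, 129 were shared with LGALS3, of the 164 of CPSF6 96, and of the 62 of MBNL2 45.

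Which other lists held the LGALS3 windows differed from gene to gene. In CTNNB1 RNPS1 held 28 of 30 windows (93.3%), CPSF5 24 (80.0%) and CPSF6 7. In AMOT EIF4B, a cofactor of the translation initiation helicase, held 31 of 35 (88.6%) and RNPS1 27, whereas EIF4B held 3 of 46 in IQGAP1. In SPTAN1 RNPS1 and CPSF6 held 26 of 27 each, and MBNL2, a muscleblind splicing regulator, 11. In SPTBN1 RNPS1 held 21 of 27, CPSF6 15 and MBNL2 2. IQGAP1 had 41 of 46 in the RNPS1 list and 36 in that of CPSF6.

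**Figure D5:**
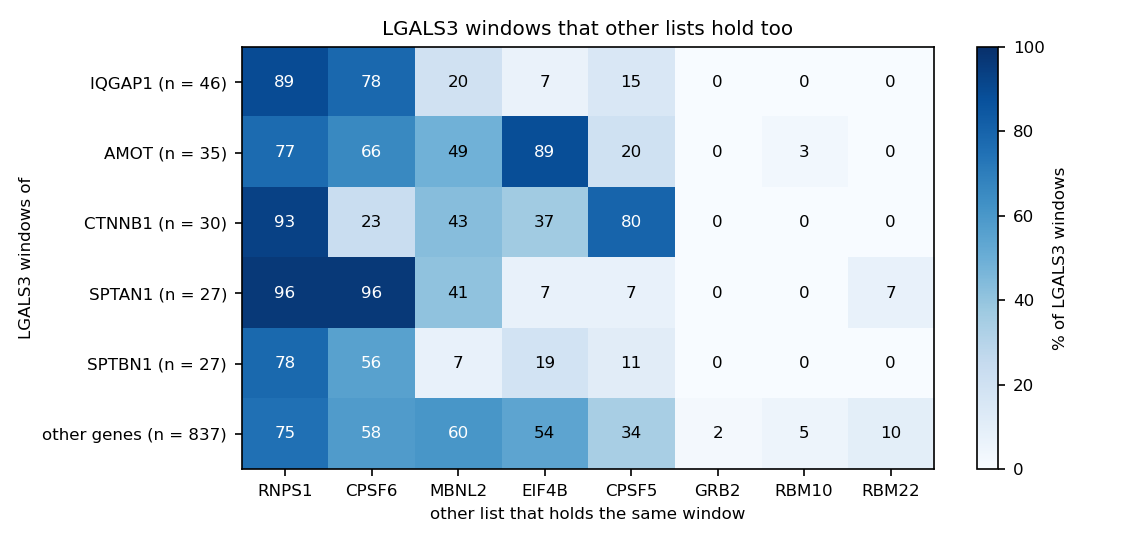
Share of the LGALS3 windows of each gene, and of the other genes of the list, that 8 further lists also held (colour and number, in %). RNPS1 is high in every row, CPSF5 in CTNNB1 (80) and EIF4B in AMOT (89).

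Windows listed for LGALS3 alone numbered 6. They were 2 coding windows each in IQGAP1 and SPTBN1, 1 in CTNNB1, and 1 in the 3' UTR of AMOT. The best supported was the IQGAP1 window without an input read named above, at 4.96 in the lower replicate. The SPTBN1 window at chromosome 2, 54653609 to 54653689, had 51 IP reads, 1 input read and values of 3.81 and 5.13. In the other 4 the q-value of the weaker replicate was above 0.05.

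Across the 9 lists, the windows of the 5 genes followed the protein. Every one of the 5 was listed for CPSF5, CPSF6, EIF4B, MBNL2, RBM10 and RNPS1, which list 61.1%, 84.2%, 89.2%, 62.2%, 45.1% and 87.0% of all genes listed for any protein. For GRB2, which lists 46.7%, it was 4 of 5, and for RBM22, which lists 23.2%, 3 of 5. These shares make presence in the long lists uninformative, and the number and place of windows are described instead.

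RNPS1 windows of the 5 genes were mostly coding, 209 of 265. SPTAN1 had 95 RNPS1 windows, with 65 genes above it, IQGAP1 59, AMOT 38, CTNNB1 37 and SPTBN1 36. Median lower enrichments were 3.56 in SPTBN1, 3.15 in SPTAN1, 3.07 in IQGAP1, 2.50 in AMOT and 2.43 in CTNNB1, against 2.93 in the whole RNPS1 list. The strongest was an IQGAP1 coding window, 90491333 to 90491403 on chromosome 15, with 63 IP reads, no input read and 5.98 in the lower replicate. It was also the third strongest IQGAP1 window for LGALS3. The strongest RNPS1 and LGALS3 windows of SPTBN1 were the same coding window, at 4.83 and 5.45 in the 2 lists.

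CPSF6, a subunit of the polyadenylation factor CFIm, had 164 of its 232 windows in the 5 genes in coding sequence, 72 of them in SPTAN1 and 45 in IQGAP1. CTNNB1 had 11 CPSF6 windows in all and SPTBN1 22. AMOT had 65, of which 32 were intronic. In none of IQGAP1 and CTNNB1 was a CPSF6 window intronic.

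CPSF5, the partner subunit in CFIm, had 61 windows in the 3' UTRs of the 5 genes and 33 in coding sequence. Of the coding ones 23 were in CTNNB1, and no gene had more coding CPSF5 windows. LGALS3 listed 21 of these 23. The other 4 genes had 4 (IQGAP1), 4 (AMOT), 2 (SPTBN1) and 0 (SPTAN1) coding CPSF5 windows. The strongest CPSF5 window of CTNNB1 was in its 3' UTR, on chromosome 3, 41240078 to 41240169, with 1690 IP reads, 37 input reads and enrichments of 5.59 and 5.76, and LGALS3 was not listed there. Of the 10 LGALS3 windows in 3' UTRs of the 5 genes, 9 were also CPSF5 windows, whereas 52 of the 61 CPSF5 windows there had no LGALS3 call.

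EIF4B had 19 windows in 5' UTRs and 50 in coding sequence of the 5 genes, of which AMOT held 8 and 32. Only 10 genes had more coding EIF4B windows than AMOT. IQGAP1 had 4 EIF4B windows in all and SPTAN1 8. The strongest EIF4B window of AMOT was the one at its transcript start, printed above, with 1046 IP reads, 21 input reads and enrichments of 5.92 and 6.33, against 56 IP reads, 8 input reads and 2.16 and 3.35 for LGALS3. At the IQGAP1 start EIF4B had 276 IP reads and 5 input reads (4.18 in the lower replicate) and LGALS3 46 and 3 (2.15).

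At the first SPTBN1 start EIF4B had 514 IP reads and 11 input reads (4.08 and 5.37) and LGALS3 30 and 1 (2.75 and 4.83). At the second SPTBN1 start, where the window is annotated as intron and 89 of its 100 bases precede the RefSeq start, EIF4B had 232 IP reads and 2 input reads (5.06 and 7.23) and LGALS3 31 and 4 (2.38 and 3.04). EIF4B was listed at all 4 of these windows, and MBNL2 at 3 of them. The enrichments belong to separate lists with separate inputs and were not set against each other by a test.

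MBNL2 had 77 windows in the 5 genes, of which 62 were coding: 21 in AMOT, 17 in SPTAN1, 15 in CTNNB1, 8 in IQGAP1 and 1 in SPTBN1. The strongest MBNL2 window of each of the 5 genes was a coding window that LGALS3 also held. For CTNNB1 it was the window that was strongest for LGALS3. The IQGAP1 one, on chromosome 15, 90483361 to 90483437, reached 5.67 but held 18 IP reads and 1 input read. Reads were fewer still in the CTNNB1 window, with 14 IP and 3 input reads, and in the SPTAN1 one, with 12 and 3. The SPTBN1 window held 33 and 5, and the AMOT one 272 and 29.

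GRB2, a signalling adaptor, had 308 windows in the 5 genes and shared 0 with LGALS3. All but 2 were intronic, with 132 in AMOT, 79 in CTNNB1, 52 in SPTBN1 and 43 in IQGAP1. SPTAN1, with a gene span of 81.1 kb, had 0, while CTNNB1, with 40.9 kb, had 80. The strongest, in an intron of CTNNB1 (chromosome 3, 41229748 to 41229847), had 286 IP reads, no input read and enrichments of 8.01 and 8.14, 30th of the 291116 GRB2 windows.

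The splicing proteins RBM10 and RBM22 gave 46 and 9 windows. Of the RBM10 ones 44 lay in splice site flanks, 26 of them in AMOT and 13 in SPTAN1. The strongest, in AMOT (chromosome X, 112782240 to 112782339), had 58 IP reads, no input read and 5.08 in the lower replicate. The SPTAN1 one next to a 3' splice site (chromosome 9, 128592883 to 128592982) had 212 IP reads and 2 input reads, at 5.05. RBM22 had 4 windows in AMOT, 3 in SPTAN1, 2 in CTNNB1 and 0 in IQGAP1 and SPTBN1.

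GC content did not set LGALS3 windows apart in 1 direction. In IQGAP1 the coding windows listed for LGALS3 had a median of 46.5% (range 36.4 to 57.7) and those listed for other proteins alone 42.1% (30.8 to 63.5). In AMOT the order was opposite, 54.2% (46.3 to 63.3) against 59.0% (52.1 to 63.3), as it was in SPTAN1, 51.8% (36.1 to 63.0) against 54.8% (37.7 to 67.7). Coding windows without LGALS3 numbered 19 in IQGAP1, only 8 in AMOT, and 61 in SPTAN1. CTNNB1 and SPTBN1 left 3 and 2. The genes themselves ranged from a median of 46.5% in IQGAP1 to 61.7% in SPTBN1 over their LGALS3 windows, whose overall median, 50.6%, equalled that of the whole list to 3 digits.

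The pattern over the 9 lists was compared by the cosine of log2(1 + number of windows) between genes, among 318 further genes with an LGALS3 window and at least 20 windows in all. Most like IQGAP1 were ANLN, the anillin gene (0.985), DIAPH1, a formin gene (0.975), and MACF1 (0.972). AMOT was nearest to ACTN4 (0.991), HNRNPC (0.989) and PRRC2B (0.987), CTNNB1 to ACTN4 (0.970), AMOT (0.968) and HNRNPC (0.966), and SPTBN1 to MACF1 (0.974), IQGAP1 (0.969) and ANLN (0.964). SPTAN1 was nearest to PRPF8 (0.981), RPL23A (0.978) and EEF1A1 (0.977). Within the 5, SPTAN1 stood farthest from the others, at 0.799 with CTNNB1 and 0.810 with SPTBN1. SPTAN1 had 0 GRB2 windows, against 43 in IQGAP1, 132 in AMOT, 80 in CTNNB1 and 53 in SPTBN1. The part of the GRB2 list in this distance was not tested. The 9 values of a gene share its RNA level and length, and the LGALS3 count among them chose the genes.

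Partner genes of the 5 had from 0 to 7 LGALS3 windows each, and the share of all genes listed for any protein with such a window was 3.27%. Of 17 spectrin skeleton genes, 11 of which were in any list, 2 had any, among them EPB41L2 with 3, and ADD1, ADD3, EPB41 and ANK2 had 0. Of 10 further cadherin and catenin junction genes, 7 of which were in any list, 1 had LGALS3 windows, the plakoglobin gene JUP with 2. AFDN, CTNNA1, CDH2, VCL and TJP1 had 0. Of 12 Wnt genes, 7 of which were in any list, APC, AXIN1 and GSK3B among them, 0 had any. Of 8 IQGAP partners, all 8 in some list, 1 did, the calmodulin gene CALM3 with 1 window. Of 13 angiomotin and Hippo genes, 10 of which were in any list, 1 did, NF2 (merlin), with 7. AMOTL1, YAP1 and IQGAP3 had 0, although IQGAP3 had 96 RNPS1 windows and 65 of CPSF6. The median was 0 windows in each of these lists, as over all genes listed for any protein.

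Of 12 other large cytoskeletal genes, 10 of which were in any list, 8 had LGALS3 windows, among them 25 in ACTN4, 24 in MACF1 and 8 in FLNA. The median over the 12 was 1.5. MYH10 and TLN1 (talin) had 0, and DYNC1H1, with 165 RNPS1 windows, had 2. Earlier results on these data were known when the lists were drawn up, and genes with many windows of any kind fill the last one, so these counts are a description.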

How the data were processed

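Per the file headers, the authors deposited 1 table of reproducible enriched windows per protein, with IP and input read counts per window summed over the replicates. The log2 enrichment (a log2 odds ratio of IP over input) was deposited by the authors as its lower, mean and higher value over the replicates, beside the smaller and the larger p-value and q-value of the replicates. Each window's GC fraction, also deposited, is printed as a percentage. Coordinates are on hg38, a build named in the submitters' processing notes. Aligner, caller and annotation release are not given in the sources used. Library depth is unknown, since reads outside listed windows are not counted in them, and no value per library was used.

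Rows were taken by gene name, and no joined gene name held 1 of the 5 genes. Coordinates are 1-based. A window was called shared where start, end and strand were the same. Feature types were grouped as coding, start codon, stop codon, UTRs, noncoding exon, splice site flank and deep intron. Exact binomial intervals (95%) cover counting error only, and windows of 1 gene are not independent. No test was made, as nothing in the tables replicates a condition. Separate cultures for the replicates are not stated.

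The 5 genes and all gene lists were chosen with earlier results of these data known. Named were the 5 genes, their neighbours in number of LGALS3 windows, the 3 genes most like each, the 3 strongest windows of each gene and the one with most IP reads, and the genes with most LGALS3 windows of each list; genes of a list named at 0 were chosen after their values were seen. Some genes that this rule names are not reported here. Counting, merging and the cosine were tested on simulated data. Python 3.11.15, numpy 2.4.6, pandas 2.3.3, scipy 1.17.1 and matplotlib 3.10.9 were used.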

Additional observations from a re-analysis of the deposited data

How the results depend on the processing

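The 165 LGALS3 windows of the 5 genes became 82 when both replicates had to have q-values no higher than 0.05, 156 with at least 20 IP reads and 110 when adjoining windows were merged into runs. The stricter q-value raised the coding share from 85.5% to 93.9% and the median lower-replicate log2 enrichment from 2.84 to 3.51, by construction toward stronger windows. With the higher replicate value in place of the lower, that median was 4.05. At the stricter q-value the counts were 28 in IQGAP1, 23 in CTNNB1, 13 in AMOT, 12 in SPTBN1 and 6 in SPTAN1, so CTNNB1 passed AMOT. As runs they were 33, 16, 18, 19 and 24, so SPTAN1 passed AMOT, CTNNB1 and SPTBN1. The coding share weighted by IP reads was 88.8%, and the share listed for another protein stayed between 92.7% and 96.4%. The median GC content lay between 48.3% and 50.7%. Windows with at least 10 input reads were only 12, with a median enrichment of 2.20. No paired analysis was possible because the tables give reads summed over the replicates, and for the same reason no replicate could be left out. Absence of enrichment and too little coverage cannot be told apart for an unlisted window.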
